A study of Homo sapiens with 12 samples.

Results

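The cytosolic ribosomal protein genes encode the protein parts of the large (RPL and RPLP symbols) and small (RPS symbols) ribosomal subunits. They were taken by symbol from the count table of an RNA-seq study of brain organoids. The rule kept symbols made of RPL or RPS, a number and at most a final A, X or L, together with RPLP0, RPLP1, RPLP2 and RPSA, and left out pseudogenes. It found 81 of the 28207 genes in the table, 49 of the large and 32 of the small subunit. Of these, 80 passed the filter on low counts and were tested among 17757 genes. The remaining member, RPL10L, a testis paralogue of RPL10, had 2 counts over all 12 libraries. FAU and the RPL7L1 type of paralogue lie outside the rule and are given as a separate list of 6 genes.

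The organoids were cerebral organoids of the established human embryonic stem cell line H1, and were either wildtype or FEZ1-KO, also labelled FEZ1-null. FEZ1 is an adaptor of kinesin motors in axonal transport, and the study asked what its loss does to neural progenitors and migrating neurons. There were 4 wildtype and 4 knockout libraries at day 10 of culture, and 2 wildtype and 2 knockout libraries at day 60. The labels do not say how the gene was disrupted, from how many clones the knockout came, or whether replicates were separate cultures, so p-values cover library-to-library spread, part of which may be technical. Each label also carries a code whose meaning is not given in the sources used here. The code is B16 for replicates 1 and 2 of both genotypes at day 10, B27 for replicate 3 and B29 for replicate 4, and it is B16 for every library of day 60.

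Every dividing or growing cell needs ribosomal proteins in equal numbers, because each ribosome holds a single copy of nearly all of them. The exceptions are the acidic proteins RPLP1 and RPLP2, which sit as dimers on RPLP0 and form the stalk of the large subunit. Their mRNAs are among the most abundant of a cell. Most begin with a C followed by a run of pyrimidines, the 5′ terminal oligopyrimidine (TOP) tract, through which mTOR signalling and the protein LARP1 control their translation and stability. Ribosome production is known to be high in proliferating stem and progenitor cells and lower in cells that leave the cycle.

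To show what a TOP tract looks like, the annotated starts of 7 members are printed here from RefSeq (GRCh38.p14), each as 30 bases before the start and 20 from it, 5′ to 3′ on the strand of the gene. Capitals mark a tract, searched for as a C at the annotated first base followed without a break by at least 4 of C or T. RPL12, RPLP0 and RPS6 are shown for their differences between days, RPL38 and RPS27 for their differences between label codes, and RPS27L and RPL10L as paralogues in whose windows no such tract was found at the start.
RPL12, chr9:127451387-127451436, minus strand: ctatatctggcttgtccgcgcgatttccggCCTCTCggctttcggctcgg
RPLP0, chr12:120201092-120201141, minus strand: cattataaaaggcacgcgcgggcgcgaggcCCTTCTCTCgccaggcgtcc
RPS6, chr9:19380217-19380266, minus strand: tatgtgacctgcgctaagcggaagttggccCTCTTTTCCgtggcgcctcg
RPL38, chr17:74203648-74203697, plus strand: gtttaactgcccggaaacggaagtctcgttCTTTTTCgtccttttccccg
RPS27, chr1:153990732-153990781, plus strand: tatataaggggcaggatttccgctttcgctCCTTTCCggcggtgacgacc
RPS27L, chr15:63157458-63157507, minus strand: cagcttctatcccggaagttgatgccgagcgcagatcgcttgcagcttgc
RPL10L, chr14:46651762-46651811, minus strand: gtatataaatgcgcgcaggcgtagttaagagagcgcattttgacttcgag

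The RefSeq table had an entry for 64 of the 81 members, and 46 of these (71.9%) had a tract at an annotated start, against 1404 of all 27305 genes with an entry (5.14%). The median tract of these members was 8 bases and the longest, of RPL39, 19 bases. RPL12 had 6 bases, RPLP0 and RPS6 9 each, and RPL38 and RPS27 7 each. A match describes the annotated letters and does not show where transcription began in these organoids, and no match says only that the letters are not at the annotated base.

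Library totals were 15.7 M to 22.7 M counts. FEZ1 itself was read at 40.5 to 49.0 CPM (counts scaled to a common library total) in the wildtype and 19.4 to 22.7 CPM in the knockout libraries at day 10, and at 197 to 240 CPM against 47.6 to 48.4 CPM at day 60, so no knockout library reached the wildtype range of its day. Neural markers were present in all groups. The summed level of 12 neuroepithelial markers was 3365 to 4622 CPM at day 10 and 3415 to 4084 CPM at day 60. Of 8 endothelial and microglial markers the sum stayed at 10.5 to 25.96 CPM, except for 126.9 CPM in wildtype day 60 replicate 2. Wildtype replicates 1 and 2 at day 10 stood apart from the other 6 day 10 libraries in 8 neural crest markers, with sums of 823 and 1232 CPM against 37.4 to 75.3 CPM. The same pair had sums of 2562 and 2963 CPM for 12 neuronal markers, against 693 to 1002 CPM in the other 6. For 8 mesenchymal markers its sums were 960 and 1273 CPM, against 221 to 377 CPM. It was lower in 10 cell cycle genes, at 1933 and 1675 CPM against 2141 to 2733 CPM. In 6 pluripotency markers it was lower too, at 1472 and 1282 CPM against 1639 to 2451 CPM. Knockout replicate 1 at day 10 stood apart in the ribosomal protein genes themselves, as described next, so some results are given with and without these libraries.

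At day 10, ribosomal protein genes took 10.4%, 10.3%, 9.25% and 9.28% of all counts in wildtype replicates 1 to 4. They took 14.2%, 10.6%, 9.06% and 8.56% in knockout replicates 1 to 4. At day 60 their share was 5.14% and 6.06% in wildtype and 5.55% and 5.39% in knockout libraries. All 8 day 10 libraries therefore lay above all 4 day 60 libraries, the genotypes overlapped at day 10, and both knockout values at day 60 lay between the wildtype values. The mean share was 9.79% ± 0.609 (SD, n = 4) in wildtype and 10.6% ± 2.55 (SD, n = 4) in knockout organoids at day 10, or 9.41% ± 1.06 (SD, n = 3) in the knockout without replicate 1. It was 5.60% ± 0.654 (SD, n = 2) in wildtype and 5.47% ± 0.115 (SD, n = 2) in knockout organoids at day 60. Among the 100 genes with the most counts, 38 to 54 were members at day 10 and 23 to 30 at day 60. Adding the 31 pseudogene entries of the table changed the share little, to 10.4% at most in wildtype and 14.2% in knockout replicate 1. In bulk RNA, fewer cells with high ribosomal protein expression and less of this RNA per cell cannot be told apart.

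**Figure D1:**
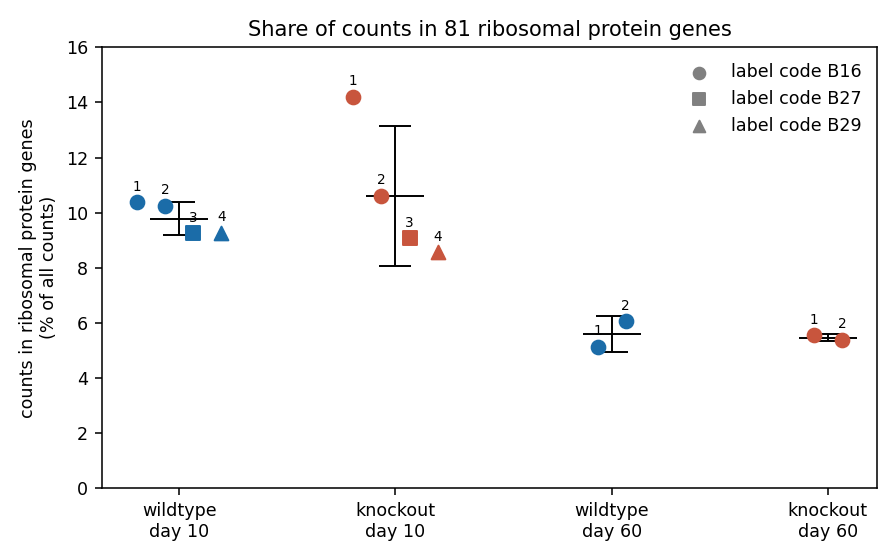
Share of all counts in the 81 ribosomal protein genes (y axis, percent) in each library of the 4 groups, with the label code as the marker and the replicate number above it; bars give the mean and SD. Knockout replicate 1 at day 10 lies at 14.2%, the other 7 day 10 libraries between 8.56% and 10.6%, and the day 60 libraries between 5.14% and 6.06%.

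Per kilobase of coding sequence, members were not at equal levels. The median over the 81 members was 2372 CPM per coding kilobase in wildtype organoids at day 10. RPL41, which encodes the shortest ribosomal protein, was highest with 8322, followed by RPL13A with 6728 and RPLP1 with 3920 CPM per coding kilobase. Counts per gene were divided by the coding length alone, which is 75 nt for RPL41, without untranslated parts. Levels of members with a short coding sequence, and the rank of RPL41, may therefore be overstated. Among the general members, RPS26 was low with 260 CPM per coding kilobase. Reads of genes with many near-identical copies may be lost or moved in counting, so this low level is uncertain. The paralogues known from other tissues were low: RPL39L, which replaces the exit tunnel protein RPL39 in testis, had 103, RPS27L, a p53-inducible relative of RPS27, had 86.4, and RPL3L, the striated muscle relative of RPL3, had 0.144 CPM per coding kilobase. RPL3L rested on 63 counts over all 12 libraries.

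Between day 10 and day 60, ribosomal protein mRNAs fell in both genotypes and none was called higher. By edgeR's quasi-likelihood test with Benjamini-Hochberg adjustment over all 17757 genes, 46 of 80 members were lower at day 60 in wildtype organoids, where 26.1% of all genes tested were called lower. In knockout organoids 61 of 80 were lower, against 26.9% of all genes. Fewer were called when knockout day 60 replicate 2 was left out, which leaves 1 library in that group. Called higher were 0 members in each genotype, against 29.3% of all genes in wildtype and 30.7% in knockout organoids. The median log2 fold change of the members was -0.85 in wildtype and -1.06 in knockout organoids, against -0.01 and 0.03 over all genes. By library, 67 members in wildtype had every day 10 value above every day 60 value (35.3% of all genes), and 62 in knockout (31.6%). Large and small subunit members had medians of -0.79 and -0.87 in wildtype and of -1.04 and -1.09 in knockout organoids, and their difference was not tested. The day 10 and day 60 groups differ in label code as well as in age. Among B16 libraries alone, 71 members were called lower in wildtype, where 25% of all genes were, and 79 in knockout, where 27.1% were. With replicate 2 as the only knockout day 10 library of B16, 79 of 80 members were lower at day 60. Their median difference of log2 CPM was -1.03, against 0.05 over all genes. With the code as a covariate the counts were 74 (26.2% of all genes) and 79 (26.8%).

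**Figure D2:**
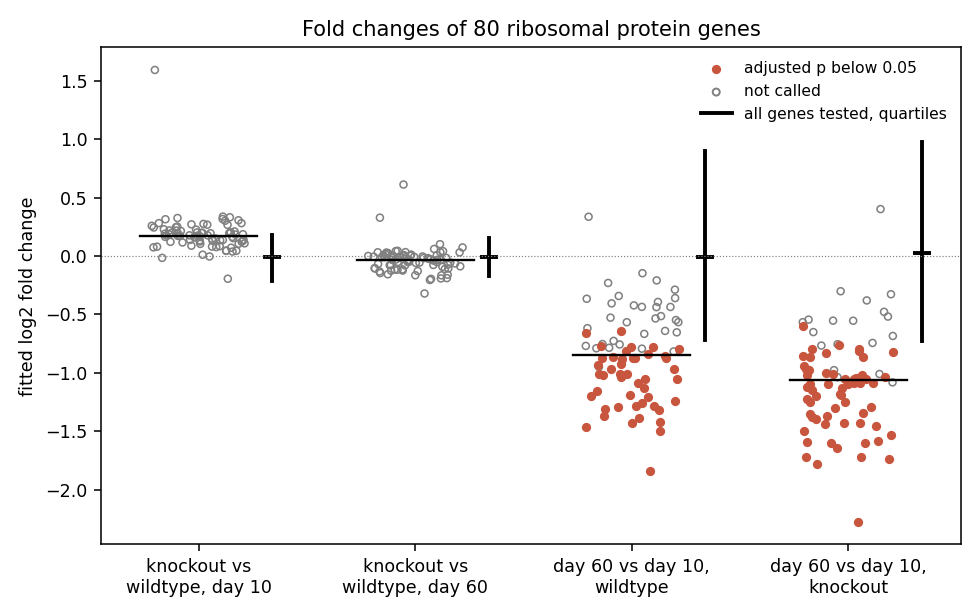
Fitted log2 fold change (y axis) of the 80 tested ribosomal protein genes in the 4 comparisons; filled points have an adjusted p below 0.05, the thin line is the members' median, and the thick bar spans the quartiles of all genes tested with their median as a tick. The members lie around 0.17 and -0.03 in the comparisons of genotypes and around -0.85 and -1.06 in the comparisons of days.

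The largest fall was that of RPL12, a protein at the base of the stalk. Its levels at day 10 were 1460, 1380, 1509 and 1542 CPM in wildtype and 2609, 1717, 1490 and 1340 CPM in knockout libraries. At day 60 they were 363 and 462 CPM in wildtype and 376 and 363 CPM in knockout libraries. No day 10 library came near the day 60 range. The log2 fold change was -1.84 ± 0.25 (SE, adjusted p = 9.78e-05) in wildtype and -2.27 ± 0.26 (SE, adjusted p = 2.41e-05) in knockout organoids. RPLP0, the stalk protein that binds next to RPL12, was at 3219, 3152, 3701 and 3678 CPM in wildtype day 10 libraries and at 1302 and 1521 CPM at day 60. It fell by 1.28 ± 0.19 (SE, log2) in wildtype and by 1.58 ± 0.19 in knockout organoids. RPLP1 fell as well, by 1.26 ± 0.30 and 1.46 ± 0.30 on the log2 scale. For the other stalk dimer protein, RPLP2, the log2 fold changes of -0.41 ± 0.33 (adjusted p = 0.313) and -0.52 ± 0.33 (adjusted p = 0.197) did not pass the test. RPLP2 was at 661, 670, 520 and 487 CPM in wildtype day 10 libraries and at 410 and 473 CPM at day 60, so the groups approached each other through replicates 3 and 4. Among B16 libraries alone RPLP2 passed the test in both genotypes, at -0.60 (adjusted p = 0.0436) in wildtype and -0.94 (adjusted p = 0.00564) in knockout organoids on the log2 scale.

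After RPL12, the members with the largest falls in wildtype were RPL7A, RPSA, RPL23A, RPS6 and RPS2. In knockout organoids RPS2, RPL7A, RPSA, RPL23A and RPL3 followed RPL12. RPSA, which is also known as the precursor of the laminin receptor, was at 2121, 1968, 2154 and 2154 CPM in wildtype day 10 libraries. It was at 744 and 779 CPM at day 60, and fell by 1.46 ± 0.19 (SE, log2) in wildtype and by 1.72 ± 0.20 in knockout organoids. RPS6, the ribosomal protein that S6 kinases phosphorylate below mTOR, was at 1798, 1805, 1782 and 1840 CPM at day 10 and at 611 and 738 CPM at day 60 in wildtype. Its day 10 libraries hardly differed among themselves, and its log2 fold change was -1.42 ± 0.19 (SE, adjusted p = 7.6e-05). RPL23A, which lies at the exit of the nascent chain, fell by 1.43 ± 0.20 in wildtype and 1.64 ± 0.21 in knockout organoids on the log2 scale. RPL3, which reaches into the peptidyl transferase centre, fell by 1.37 ± 0.24 and 1.60 ± 0.24.

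Members with known roles outside protein synthesis were among those that fell. RPL5 and RPL11 bind MDM2 together with a ribosomal RNA of the large subunit when ribosome assembly fails, and so stabilise p53. RPL5 was at 2278, 2196, 2014 and 2081 CPM in wildtype at day 10 and at 819 and 907 CPM at day 60, without overlap. Its log2 fold change was -1.31 ± 0.15 (SE, adjusted p = 3.65e-05) in wildtype and -1.38 ± 0.16 (SE, adjusted p = 2.42e-05) in knockout organoids. RPL11 fell by 1.13 ± 0.28 and 1.35 ± 0.28 on the log2 scale. RPS27A, made as a fusion with ubiquitin, fell by 1.15 ± 0.17 and 1.43 ± 0.17. RPS4X, encoded on the X chromosome, fell by 1.24 ± 0.20 and 1.44 ± 0.20. RPS19 and RPS26, whose loss of a copy causes Diamond-Blackfan anaemia, fell by 0.84 ± 0.28 and 0.78 ± 0.27 in wildtype. In knockout organoids they fell by 1.12 ± 0.28 and 1.07 ± 0.27. Without both B16 wildtype day 10 libraries, their wildtype log2 fold changes were -0.69 and -0.68 and were not called (adjusted p = 0.0788 and 0.0863). Their wildtype calls were lost when either wildtype day 60 library was left out (adjusted p = 0.121 for RPS19 and 0.170 for RPS26 without replicate 1), and that of RPS26 also without wildtype day 10 replicate 1 (adjusted p = 0.0567). RPL22, which also binds cellular and viral RNAs, fell by 1.01 ± 0.26 in wildtype and 1.05 ± 0.26 in knockout organoids, the latter with an adjusted p of 0.0504 without knockout day 60 replicate 2. RPL10, which joins the large subunit late in its maturation, fell by 0.65 ± 0.19 and 0.80 ± 0.19, the former with an adjusted p of 0.0924 without wildtype day 60 replicate 1.

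RPS3, at the mRNA entry channel, and RPL13A, known from interferon-dependent translational control, passed the test in the knockout and not in the wildtype in the fit of all 12 libraries. For RPS3 the log2 fold changes were -0.88 ± 0.35 (adjusted p = 0.0524) in wildtype and -1.09 ± 0.36 (adjusted p = 0.0209) in knockout organoids. For RPL13A they were -0.73 ± 0.33 (adjusted p = 0.0835) and -1.0 ± 0.34 (adjusted p = 0.0239). RPL41 likewise gave -0.79 ± 0.32 (adjusted p = 0.0546) and -1.15 ± 0.33 (adjusted p = 0.0105). The difference between the genotypes passed the test for none of these, with adjusted p of 0.985 for RPS3, 0.973 for RPL13A and 0.962 for RPL41. In B16 libraries alone each of these was called lower in wildtype as well, and so it was in the fit without knockout day 10 replicate 1. The knockout calls of these were lost when either knockout day 60 library was left out, with adjusted p of 0.105 for RPS3, 0.115 for RPL13A and 0.0689 for RPL41 without replicate 2. RPL39, in the exit tunnel, was not called in either genotype, at -0.37 ± 0.40 and -0.30 ± 0.40. In the knockout its log2 fold change was 0.033 without replicate 1 at day 10. In B16 libraries alone it was called lower in both genotypes, at -0.70 (adjusted p = 0.0124) in wildtype and -0.80 (adjusted p = 0.0058) in knockout organoids.

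RPS27L was the only member with a higher fitted value at day 60. It was at 25.4, 25.5, 17.9 and 18.2 CPM in wildtype and at 24.4, 19.6, 16.2 and 15.9 CPM in knockout libraries at day 10. At day 60 it was at 26.1 and 28.9 CPM in wildtype and at 24.4 and 25.8 CPM in knockout libraries. All day 10 values lay below the day 60 values of the same genotype, as they did for 37.2% of all genes in wildtype and 37% in knockout organoids, though the highest of them by little. The log2 fold change of 0.34 ± 0.21 (adjusted p = 0.199) in wildtype and 0.40 ± 0.21 (adjusted p = 0.126) in knockout organoids did not pass the test. Without knockout day 10 replicate 1 the latter was 0.54 and was called (adjusted p = 0.0235). With library size alone the knockout value was 0.58 and was called (adjusted p = 0.0265). Without both B16 wildtype day 10 libraries the wildtype value was 0.58 and was called (adjusted p = 0.0389). Within B16 the wildtype difference of log2 CPM was 0.11, and RPS27L was called in neither genotype among B16 libraries alone. Its parent RPS27 was at 1028, 1029, 550 and 535 CPM in wildtype at day 10 and at 497 and 593 CPM at day 60, so the groups overlapped. Its log2 fold changes of -0.53 ± 0.47 and -0.68 ± 0.48 were not called (adjusted p = 0.362 and 0.237), while among B16 libraries alone they were -0.92 (adjusted p = 0.00497) and -1.25 (adjusted p = 0.000936). RPL39L gave -0.57 ± 0.34 and -0.54 ± 0.34, not called in the fit of all 12 libraries, though the latter was -0.76 and called without knockout day 10 replicate 4 (adjusted p = 0.0283). In B16 libraries alone RPL39L was called lower in both genotypes, at -0.69 (adjusted p = 0.0242) in wildtype and -0.97 (adjusted p = 0.00439) in knockout organoids. RPL3L had 1 to 5 counts per wildtype library and 2 to 14 per knockout library. Its log2 fold change of -1.74 ± 0.60 (adjusted p = 0.0267) in knockout organoids is 1 of the 61 calls and rests on these few counts.

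Falls between days were found among members with a TOP tract at an annotated start and among those without. In wildtype, 25 of the 46 members with a tract and 13 of the 17 tested members with an entry and no tract were called lower, with median log2 fold changes of -0.82 and -0.97. In knockout organoids 35 of 46 and 14 of 17 were, with medians of -1.07 and -1.10. Of all genes, 26.1% and 26.9% were called lower. The difference between these sets was not tested.

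Genes of other parts of ribosome production were compared between days in the same fit, in which 26.1% of all genes were called lower and 29.3% higher in wildtype, and 26.9% and 30.7% in knockout organoids. Of 19 translation factors and related genes with TOP mRNAs, 17 were called lower in wildtype and 19 in knockout organoids, with median log2 fold changes of -1.04 and -1.34. The members of that list with the smallest p in wildtype were HNRNPA1 (5120 to 1071 CPM between group means), NAP1L1 (1674 to 512 CPM) and the poly(A)-binding protein PABPC1 (2405 to 609 CPM). Of 40 ribosome biogenesis factors, 25 were called lower and 2 higher in wildtype, and 27 lower and 1 higher in knockout organoids. Among these, nucleolin (NCL) fell by 1.39 ± 0.15 and POLR1A, the largest subunit of RNA polymerase I, by 1.05 ± 0.12 (SE, log2, wildtype). None of the 6 ribosomal proteins outside the rule was called in either genotype, with medians of -0.22 and -0.46. Of 78 mitochondrial ribosomal proteins, 32 and 39 were called lower and 3 and 1 higher, with medians of -0.44 and -0.60. Of 13 snoRNA host genes, 4 were called lower in each genotype (30.8%), near the share of all genes. Called higher were 2 of them in wildtype and 1 in knockout organoids, and their medians were -0.15 and -0.54. Of 17 genes that control ribosomal protein mRNAs, such as the mTOR and MYC pathways, 4 were higher and 2 lower in wildtype, and 6 higher and 2 lower in knockout organoids, which is near or under the share of all genes. MYC was higher at day 60, from a mean of 2.52 to 22.4 CPM in wildtype (log2 fold change 3.14 ± 0.41), and EIF4EBP2 lower, by 1.13 ± 0.16. The cell cycle list moved with the ribosomal protein genes: 10 of 10 genes were called lower in wildtype and 8 of 10 in knockout organoids. So did pluripotency markers, of which 4 of 4 tested were called lower in each genotype. The sum over 6 of them was 1282 to 2451 CPM at day 10 and 2.03 to 5.21 CPM at day 60. Neural crest markers were called lower for 6 of 8 in wildtype and 0 of 8 in knockout organoids. Neuronal markers went the other way, with 6 of 12 and 12 of 12 called higher, and so did mesenchymal markers, with 7 of 8 and 6 of 8. The part of these changes in cell makeup in the fall of ribosomal protein genes was not tested.

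The knockout of FEZ1 changed no ribosomal protein gene past the test at either day. At day 10, 0 of 80 members were called, where 0.124% of all genes tested were, and 1 member, RPL3L, had an unadjusted p below 0.05. DESeq2 also called 0 members. The fitted value was higher in the knockout for 77 of 80 members, with a median log2 fold change of 0.17 against -0.01 over all genes. Without knockout replicate 1 the median was -0.07. Within label codes the median difference of log2 CPM between knockout and wildtype was 0.35 in B16 (0.06 with replicate 2 as the knockout library), -0.04 in B27 and -0.17 in B29. Leaving out replicate 1 thus turned the sign of the median. In the authors' deposited table none of the members (0 of 80) had an adjusted p below 0.05, where 526 of 19179 genes had. A positive log2 fold change was given for 79 members, with a median of 0.20. The comparison in that table is named only as FEZ1-null against wildtype, without a day or a list of libraries.

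RPL3L had the smallest p, and its log2 fold change was 1.59 ± 0.46 (SE, adjusted p = 0.226). Its 4 wildtype day 10 libraries held 2 to 5 counts each and its knockout libraries 14, 12, 9 and 4. RPL17, near the tunnel exit, was at 580, 551, 566 and 586 CPM in wildtype and at 926, 667, 596 and 572 CPM in knockout libraries. Its log2 fold change of 0.27 ± 0.15 (SE, adjusted p = 0.486) did not pass the test, and knockout replicate 4 lay inside the wildtype range. RPS6 was at 2524, 1770, 1688 and 1623 CPM in knockout libraries, with replicate 1 alone above the wildtype range of 1782 to 1840 CPM. The neural crest markers that set wildtype replicates 1 and 2 apart summed to at most 75.3 CPM in the knockout libraries of day 10, and their part in this comparison was not tested. Without these wildtype libraries the median of the members was 0.29, with 0 called.

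At day 60, 0 of 80 members were called, where 0.0225% of all genes were, and 0 had an unadjusted p below 0.05. DESeq2 called 0 members. The median log2 fold change was -0.03, against -0.01 over all genes, and 56 of 80 fitted values were lower in the knockout. RPS27A had the smallest p, at 361 and 403 CPM in wildtype and 358 and 311 CPM in knockout libraries, and its log2 fold change was -0.19 ± 0.18 (SE, adjusted p = 1). RPL39L was at 10.6 and 10.7 CPM in wildtype and at 13.9 and 12.9 CPM in knockout libraries. The groups of RPL39L did not overlap, but its log2 fold change of 0.33 ± 0.39 had an adjusted p of 1. RPL13 gave -0.19 ± 0.23 (SE, adjusted p = 1). The summed level of 8 mesenchymal markers was 629 and 795 CPM in the knockout and 1903 and 3932 CPM in the wildtype at day 60, with 0 of 8 called and 7 with an unadjusted p below 0.05, and its part in this comparison was not tested.

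The change between days was also compared between genotypes. The difference of the genotype effect between days was called for 0 of 80 members and for 0% of all genes, 0 members had an unadjusted p below 0.05, and 0 were called by DESeq2. Its median over members was -0.21 on the log2 scale, and 0.02 without knockout replicate 1 at day 10. RPS15 and RPL13 had the smallest p, with log2 differences of -0.43 ± 0.29 and -0.40 ± 0.28 (SE) and adjusted p of 0.862 and 0.866. RPS15 was at 1494, 863, 844 and 951 CPM in knockout day 10 libraries and at 609 and 563 CPM at day 60. In wildtype it was at 825, 830, 850 and 947 CPM at day 10 and at 646 and 668 CPM at day 60. Only knockout replicate 1 lay far from the other day 10 libraries.

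Knockout replicate 1 at day 10 was the library in which ribosomal protein genes were highest. It had the highest CPM of the 8 day 10 libraries for 78 of 80 members, as it had for 31.9% of all genes tested. It was at least 1.5-fold above the mean of knockout replicates 2 to 4 for 59 members, against 23.1% of all genes. The median difference of log2 CPM from these replicates was 0.79 over members and 0.05 over all genes. Among the largest differences were those of RPS29 (2.0), RPL38 (1.71), RPL35 (1.57) and RPS21 (1.56 on the log2 CPM scale). The smallest were RPS3A (-0.01), RPS24 (0.26), RPL15 (0.26), RPS7 (0.29) and RPL9 (0.32). RPS29, a zinc-binding protein of the small subunit, was at 684 CPM in replicate 1 and at 481, 107 and 96.9 CPM in replicates 2 to 4. RPS3A was at 2006 CPM in replicate 1 and at 1653, 2249 and 2200 CPM in the others. In both genes replicate 2, which shares the code B16, lay apart from replicates 3 and 4.

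Against replicate 2, which has the same label code, knockout replicate 1 was higher for all 80 members, and far more evenly. The difference of log2 CPM ran from 0.26 to 0.87, with a median of 0.54 against 0.07 over all genes. RPS29, RPL38 and RPL12 differed by 0.51, 0.60 and 0.60. Other gene lists were also high in this library: against replicates 2 to 4 the median difference of log2 CPM was 0.91 over respiratory chain subunits, 0.89 over snoRNA host genes, 0.54 over mitochondrial ribosomal proteins and 0.54 over ribosomal proteins outside the rule. Among cell type lists it was 0.57 over mesenchymal markers (7 of 8 higher) and 0.48 over neuroepithelial markers (10 of 12 higher). Over the tested endothelial and microglial markers it was 0.42 (4 of 5 higher) and over those of pluripotency 0.14 (2 of 4 higher). Over neural crest markers it was 0.13 (5 of 8 higher) and over neuronal markers -0.26 (3 of 12 higher). It was 0.25 over translation factors with TOP mRNAs and 0.07 over ribosome biogenesis factors, and -0.25 over the cell cycle list. Against replicate 2 alone, the medians were 0.48 over respiratory chain subunits, 0.49 over snoRNA host genes and 0.41 over mitochondrial ribosomal proteins. They were 0.39 over ribosomal proteins outside the rule, 0.31 over translation factors, 0.03 over biogenesis factors and -0.18 over the cell cycle list. Over the 15034 other genes with a coding length, the difference from replicate 2 fell with coding length (Pearson r = -0.29, Spearman rho = -0.28, across genes of the same pair of libraries). Over the 80 members the same difference from replicate 2 had r = 0.03 and rho = 0.03 with coding length, whereas their difference from replicates 2 to 4, which include B27 and B29, had r = -0.50 and rho = -0.51. Between other genes of under 300 nt and of at least 3000 nt of coding sequence, the median difference from replicates 2 to 4 went from 0.53 to -0.40. The part of this relation with length in the high share of this library was not tested.

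**Figure D3:**
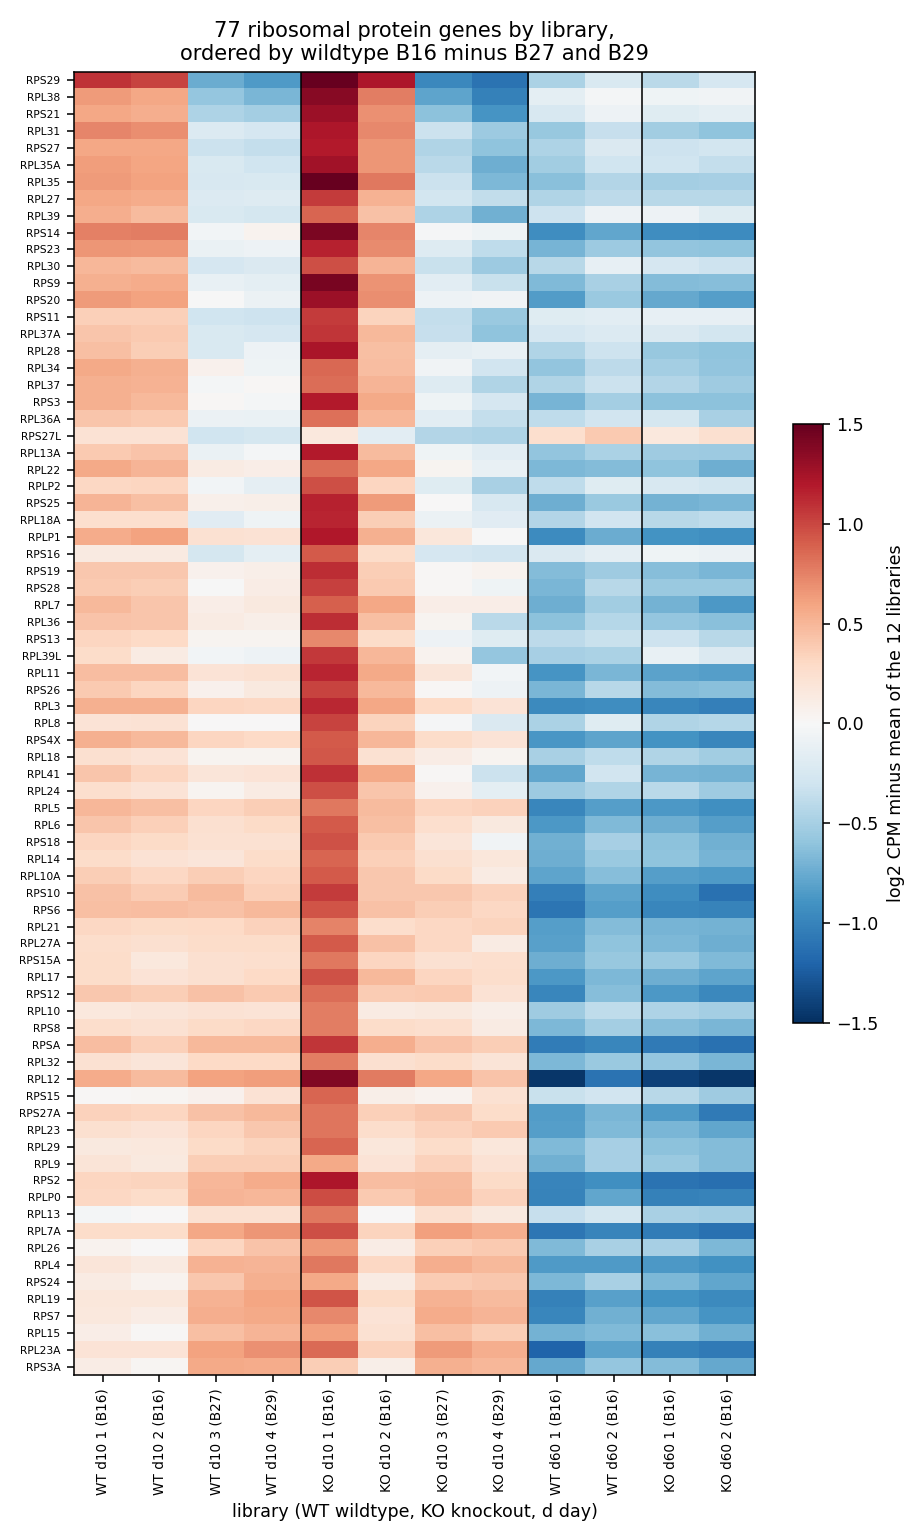
Level of 77 of the 81 ribosomal protein genes (rows, without RPL3L and RPL10L for their low counts and without members not reported here) in the 12 libraries (columns), as log2 CPM minus the mean of the 12 libraries; rows run from the largest to the smallest difference between B16 and the other codes in wildtype at day 10. Knockout replicate 1 at day 10 is high in nearly all rows, the day 60 libraries are low, and in the upper rows the B16 libraries of day 10 exceed those of B27 and B29.

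The label codes split the members in the same order in both genotypes. In wildtype at day 10, B16 libraries minus B27 and B29 libraries ran from -0.49 for RPS3A to 1.84 for RPS29 on the log2 CPM scale. In the knockout, replicate 2 minus replicates 3 and 4 ran from -0.43 for RPS3A to 2.24 for RPS29. Across the 80 members these differences had a Pearson r of 0.97 and a Spearman rho of 0.95, although they share no library. Across 15034 other genes the values were -0.02 and 0.17. Members higher in B16 in both genotypes numbered 48, of which 21 by at least 0.5 on the log2 scale, 16 were lower in both, and 16 had opposite signs. Of the 15034 other genes, 28.2% were higher in both, 3.56% by at least 0.5, 31.6% were lower in both and 40.2% had opposite signs. RPS29 was at 440 and 421 CPM in wildtype B16 libraries and at 124 and 116 CPM in B27 and B29. RPL38, which is needed for translation of Hox mRNAs in mice, was at 569 and 548 CPM against 245 and 227 CPM. RPS21 was at 408 and 399 CPM against 198 and 191 CPM. The reverse order was seen in RPL23A, at 626 and 626 CPM against 827 and 872 CPM, and in RPS7, at 760 and 737 CPM against 989 and 1007 CPM.

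The codes were also compared in the fit with the code as a covariate, a comparison chosen after the data were seen. In it, 29 of 80 members were called higher and 0 lower in B16 than in the mean of B27 and B29. Of all genes, 5.15% were called higher and 1.91% lower. Without knockout replicate 1, 39 of 79 members were called higher (7.69% of all genes) and 10 lower (6.21%). In the fit with all libraries RPS29 differed by 2.18 ± 0.17 (SE, log2, adjusted p = 0.00137), RPL38 by 1.62 ± 0.18 (adjusted p = 0.00539) and RPS21 by 1.41 ± 0.18 (adjusted p = 0.00751). RPS3A differed by -0.38 ± 0.10 (adjusted p = 0.0538). The shorter members were higher in B16: the difference had a Pearson r of -0.53 with log2 coding length in wildtype and -0.56 in knockout libraries across the 80 members, against -0.01 and -0.20 across other genes. Members share these libraries and their composition, so these values describe the libraries. The wildtype B16 libraries also carried the neural crest and neuronal markers, whereas knockout replicate 2, with the same pattern of members, had a neural crest sum of 37.4 CPM. Differences tied to the code and other differences between these libraries cannot be told apart.

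**Figure D4:**
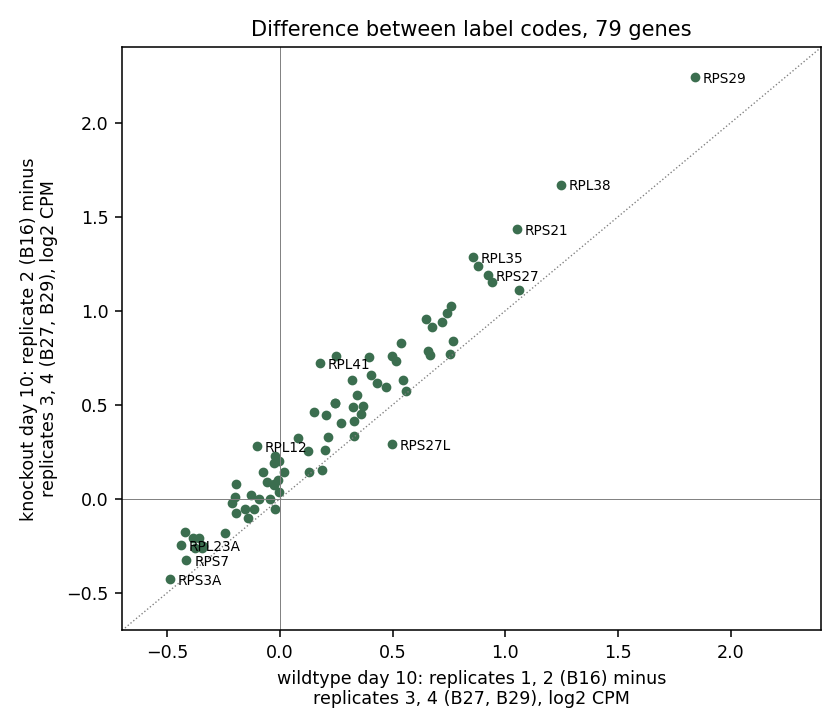
Difference of log2 CPM at day 10 between libraries of code B16 and of codes B27 and B29, for 79 ribosomal protein genes, in wildtype (x axis) and in knockout libraries without replicate 1 (y axis); the dotted line marks equal differences. The points rise together from RPS3A (-0.49 and -0.43) to RPS29 (1.84 and 2.24).

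All day 60 libraries carry B16, and for some members the day comparison differed between the 12-library fit and the B16 libraries alone. In wildtype, the difference between days had a Pearson r of -0.46 with log2 coding length across members in the 12-library fit, and -0.18 within B16. RPS29 was at 149 and 177 CPM at day 60 in wildtype, far under the B16 day 10 libraries and above those of B27 and B29. Its log2 fold change was -0.75 ± 0.81 (SE, adjusted p = 0.451) in the 12-library fit and -1.40 as a difference of log2 CPM within B16. RPL38 gave -0.21 ± 0.62 (adjusted p = 0.791) and -0.70. RPL12, in contrast, gave -1.84 in the 12-library fit and -1.79 within B16. Over all settings tried, 35 members were called lower in wildtype in each of 23 fits, and 40 in knockout organoids in each of 24 fits. RPL12, RPLP0, RPSA, RPS6, RPS2, RPL7A, RPL23A, RPL3, RPL5, RPL11, RPS4X and RPS27A were in both sets. The share of all genes called in every fit is not given here.

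**Figure D5:**
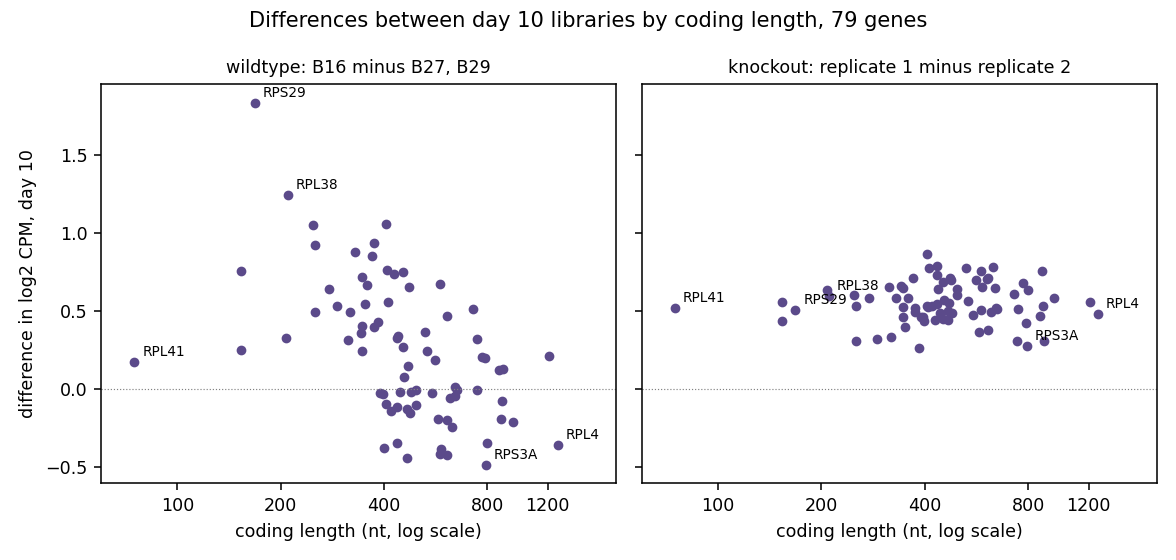
Difference of log2 CPM between day 10 libraries (y axis) against coding length (x axis, nt, log scale) for 79 ribosomal protein genes, with wildtype B16 minus B27 and B29 on the left and knockout replicate 1 minus replicate 2, both B16, on the right. On the left shorter members lie higher (r = -0.53 over 80 members), whereas on the right all members lie between 0.26 and 0.87 without such a slope (r = 0.03).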

How the data were processed

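Per the labels' protocols, organoid RNA was isolated with TRIzol and a commercial provider prepared the libraries. The authors deposited raw counts per gene symbol. STAR, HTSeq, DESeq2 and the build hg19 are named in the submitters' processing notes. Versions, annotation and strandedness are not given there. Reads shared with pseudogenes or with the readthrough genes RPL17-C18orf32, RPL36A-HNRNPH2 and RPS10-NUDT3 may be lost or split. A normalized signal deposited by the authors is, for 100% of values within a relative tolerance of 1e-06, the count over a factor of its library, and had no other use. The log2 fold changes and p-values deposited by the authors are used only where their table is named, and the score in that table, deposited by the authors as a test statistic, was not used further.

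All 12 libraries entered 1 edgeR quasi-likelihood fit (TMM, filterByExpr, robust prior) with 4 groups, with Benjamini-Hochberg adjustment over 17757 genes, and members with an adjusted p below 0.05 are called. Levels are CPM scaled with TMM, and log2 CPM uses a prior count of 2. Fitted log2 fold changes carry an SE equal to their size over the square root of F. Tools were edgeR 4.0.16 with limma 3.58.1, and DESeq2 1.42.0, in R 4.3.3, and the fit was tested on simulated data. For day 60 against day 10 in wildtype, it called 23 of 100 genes given a log2 change of 1. Of genes given a log2 change of 2 it called 79 of 100, and 3 unchanged genes were called. A gene that is not called may therefore still differ. Coding lengths are from GENCODE 29 and were found for 100% of tested members. Library totals were 15.7 M to 22.7 M, at which RPL3L and RPL10L had the fewest counts.

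The members and lists were chosen with earlier results of these data known. The named members are up to 6 called members with the largest rise or fall per comparison, the 3 with the smallest p where none was called, the 5 largest and 5 smallest differences of knockout replicate 1, and a list of members by role. Values of some members this rule names are not reported here, and counts and medians over the members include them. From other lists up to 3 called genes with the smallest p are named. Members named beside the label codes and for their level per kilobase were picked after their values were seen. Samples were grouped by the genotype, day and label code of their labels.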

Additional observations from a re-analysis of the deposited data

Results flagged for a closer look

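Among 78 sets of 4 day 10 libraries (wildtype or knockout, for the named members and the share of counts), 4 had a library that stood apart. In each, knockout replicate 1 lay farther from the other knockout libraries than Dixon's critical value for 4 samples allows. These were RPS2 at 5654 CPM, RPS6 at 2524 CPM, RPL10 at 2429 CPM and RPS15 at 1494 CPM, in each case above the other 3. For members such as RPS29, replicate 2 lay between replicate 1 and the rest, so the gap was not large against the range. Chance gives such a library in about 5% of independent sets. The 78 sets were not independent, because they reuse the same day 10 libraries. Some members were also named for their difference in knockout replicate 1. The count of 4 therefore cannot be judged against this rate.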

How the results depend on the processing

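Counts and medians were recomputed with RLE factors, TMM factors without the members, library size alone, no filter, DESeq2, a label code covariate, B16 libraries only, only the groups compared, and each library left out in turn. Other settings, without both wildtype day 10 libraries of B16 and within B16 without knockout replicate 1, were chosen after seeing the data. Members called between genotypes, and for the difference of their effect between days, stayed at 0 in all of these. With B16 libraries only, which include knockout replicate 1, 8.01% of all genes were called lower and 3.52% higher in the knockout at day 10. In that comparison 79 of 80 members had a higher value in the knockout, with a median of 0.38. An unadjusted p below 0.05 was found for 16 members. For the difference between days, 0.743% of all genes were called lower and 4.41% higher in the same fit. For day 60 against day 10 in wildtype, the count of 46 rose to 71 with B16 libraries only and 74 with the code covariate. In other settings some wildtype calls were lost, as given above for RPS19, RPS26 and RPL10. In knockout organoids, the count of 61 ranged from 40 to 67 with single libraries left out, and the median moved from -1.06 to -1.38 with B16 libraries only. Same-numbered day 10 libraries had correlations of deviations of 0.12, -0.08, 0.30 and -0.10 over all genes, so the numbers were not taken as pairs. Over the members alone, where the numbers also carry the label code, these were 0.904 to 0.968. With the number as a replicate block the wildtype count was 71 and the knockout median -1.36. The direction for RPL39 between days turned in wildtype to 0.034 without both B16 libraries of day 10, and ranged from -0.51 to 0.033 in knockout organoids with single libraries left out, the highest without day 10 replicate 1. RPL39 was called lower in both genotypes with B16 libraries only, with the code covariate and with the replicate block, at -0.70 to -0.83 in wildtype and -0.68 to -0.80 in knockout organoids. Library size alone moved the median of all genes between days by 0.11 in wildtype and 0.17 in knockout organoids, and the members' median relative to it was -0.84 and -1.06. Causes of these changes were not tested. The day comparison rests on 2 libraries per genotype at day 60, all of 1 label code. Leaving out either of them leaves 1 library in its group. The share of all genes called is not given for the fits with single libraries left out.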
